A study of Mus musculus with 28 samples.

Results

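A set of 10 genes that build and maintain the white pulp of the spleen was examined in mouse spleen after a diet with abscisic acid and after lipopolysaccharide. They are Cxcl13, Ccl19, Madcam1, Lta, Ltb, Ltbr, Tnfsf11, Tnfsf13b, Nkx2-3 and Tlx1, which were listed by symbol. The list was chosen with earlier results of these data known. Of these 10 genes, 9 have an Affymetrix probe set that names that gene alone, out of 18193 such genes on the array, and each was read from its probe set with the highest mean. Ccl19 has none: its one probe set names 10 loci at once, so the values below cannot be assigned to Ccl19 by itself.

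The 28 arrays come from a pair of experiments on the spleens of floxed mice. The mice labelled wild-type are PPAR g flfl; MMTV-Cre- and those labelled null are PPAR g flfl; MMTV-Cre+, so both genotypes carry floxed alleles of the nuclear receptor gene Pparg and differ in a Cre recombinase driven from the MMTV promoter. The labels describe the deletion in one place as specific to the spleen and in another as covering epithelial and immune cells. Mice of either genotype ate a control diet or one supplemented with abscisic acid (ABA, a hormone of plants) and received or did not receive lipopolysaccharide (LPS, a bacterial cell wall component that activates innate immunity). The sources used here give no doses, times after LPS or ages. The wild-type-only experiment holds 4 arrays with LPS on each diet and 2 arrays without LPS on each diet. The two-genotype experiment holds 2 arrays in each of its 8 groups of genotype, diet and LPS.

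The white pulp is the lymphoid part of the spleen, with B cell follicles and a T cell zone around small arteries. Lymphotoxin made by lymphocytes engages the lymphotoxin beta receptor on stromal cells, which answer through the alternative NF-kB pathway (NIK, p52 and RelB) by making the chemokines CXCL13, CCL19 and CCL21, and these in turn hold B cells and T cells in their places. MAdCAM-1 marks the lining of the marginal sinus, and the homeobox factors TLX1 and NKX2-3 are needed for the spleen, or its proper architecture, to form.

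Values are log2 units as deposited. The lowest value in the table was 2.29 for wild-type-only arrays and 2.24 for two-genotype arrays. At it sat 43.5% to 45.8% of probe sets per array in the former and 37.5% to 39.4% in the latter. Levels are therefore compared within an experiment only. A value within 0.5 log2 units of the lowest is called near the lowest value, where a difference has no measured size. Many probe sets also repeat one value, within 0.005 log2 units, on several arrays. In whole-spleen RNA, fewer cells of a type and less RNA per cell cannot be told apart. Whether replicates are separate animals is not stated in the labels. The p-values therefore measure no more than the spread between these samples, which may be technical, and the number of arrays limits the precision.

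Some facts of the libraries touch the results. Xist, made from the inactive X chromosome, was high on 12 of 12 wild-type-only arrays and on 6 of 16 two-genotype arrays. Cpa1, which encodes a protease of the pancreas, was high (more than 2 log2 units over the lowest value, as for Xist) on 4 arrays, 2 in each experiment. In the two-genotype experiment these were null ABA array 2 and null control diet array 2, both without LPS. They are 2 of the 4 null arrays without LPS, so comparisons that use those arrays carry this pancreas signal. In the wild-type-only experiment they were control diet array 2 with LPS and control diet array 1 without LPS. Pparg itself lay between 2.31 and 3.56 on wild-type and between 2.45 and 3.31 on null arrays of the two-genotype experiment, so it does not separate the genotypes, and where its probe set lies relative to the deleted part is not stated in the labels. Markers of B cells (Cd79a), T cells (Cd3e) and follicular dendritic cells (Cr2) were measured well above the lowest value in both experiments. Of the markers of fibroblastic reticular cells, the stromal cells of the T cell zone, Des was near the lowest value on all wild-type-only arrays. So were Cd209b, of marginal zone macrophages, and Retn, of adipose tissue. The B cell marker Pax5 was near the lowest value on all two-genotype arrays, and the dendritic cell marker Xcr1 on all arrays of both experiments.

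Promoters of 4 of the genes are shown: Cxcl13, Madcam1 and Tlx1, which passed the LPS test in wild-type mice, and Ltb, which did not pass but encodes the ligand of the pathway. Each is the 250 bases before an annotated start, 5′ to 3′ on the plus strand of GRCm38.p6 (RefSeq). All 10 genes matched the promoter table. Capitals mark letters matched, on either strand, by the kappaB consensus, by the RelB-type motif GGAGANTT, by the interferon-type motif GAAANNGAAA or by the TATA box TATAAA. Cxcl13 lies at chr5:95956689-95956938, Madcam1 at chr10:79664309-79664558, Tlx1 at chr19:45150465-45150714 and Ltb at chr17:35194257-35194506. The Tlx1 window lies inside the annotated span of that gene, which begins at 45150092, so it is not the sequence before the first base of the gene.
Cxcl13: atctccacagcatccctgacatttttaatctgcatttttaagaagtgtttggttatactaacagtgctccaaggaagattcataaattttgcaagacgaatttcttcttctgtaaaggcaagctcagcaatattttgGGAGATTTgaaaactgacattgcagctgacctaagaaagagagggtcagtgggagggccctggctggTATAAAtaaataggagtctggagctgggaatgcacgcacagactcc
Madcam1: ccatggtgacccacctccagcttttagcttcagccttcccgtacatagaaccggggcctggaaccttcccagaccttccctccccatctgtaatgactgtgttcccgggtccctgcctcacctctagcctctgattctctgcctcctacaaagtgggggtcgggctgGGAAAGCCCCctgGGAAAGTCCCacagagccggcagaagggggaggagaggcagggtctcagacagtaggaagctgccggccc
Tlx1: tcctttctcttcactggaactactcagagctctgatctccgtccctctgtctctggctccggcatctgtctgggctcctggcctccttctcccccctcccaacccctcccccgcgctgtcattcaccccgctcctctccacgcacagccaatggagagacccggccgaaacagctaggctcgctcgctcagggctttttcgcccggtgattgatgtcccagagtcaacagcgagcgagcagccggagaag
Ltb: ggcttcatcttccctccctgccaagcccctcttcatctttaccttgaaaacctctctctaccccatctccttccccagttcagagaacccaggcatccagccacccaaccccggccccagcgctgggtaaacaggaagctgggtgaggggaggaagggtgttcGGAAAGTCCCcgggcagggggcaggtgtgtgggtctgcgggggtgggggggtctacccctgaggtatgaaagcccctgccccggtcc

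The Cxcl13 window holds GGAGATTT 113 to 106 bases before the start and TATAAA 46 to 41 bases before it. GGAGANTT occurs in 3.99% and TATAAA in 12.4% of the 32851 promoters in the table. The Madcam1 window holds the kappaB consensus at 83 to 74 and again at 70 to 61 bases before the start, and the Ltb window holds it at 87 to 78, both on the minus strand; 7.25% of all promoters hold it. The Tlx1 window held none of these letters. GAAANNGAAA, in 2.98% of promoters, was found in the windows of Ccl19 and of 1 of the Tnfsf13b promoters. These matches describe the letters only.

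In the fit of the 20 wild-type arrays, 3 of the 9 genes passed for LPS. Cxcl13, the B cell attracting chemokine, and Madcam1, the marginal sinus adhesion molecule, rose, and the spleen homeobox factor Tlx1 fell. Madcam1 and Tlx1 lay near the lowest value on 12 and 10 of the 12 wild-type-only arrays, so their joint changes have no exact size. The 2 that rose stand beside 16.7% of all genes called higher, and the 1 that fell beside 14.1% called lower, so 3 of 9 is close to the 30.9% of all 13458 tested genes called in either direction. That share depends on the filter on low values. It was 20.1% without a filter and 41.7% with a filter at the 60th percentile, with the same 3 genes called. The median change over the 9 genes was 0.27 log2 units, which is the value of Tnfsf13b, against -0.00072 over all tested genes. The differences of Tnfsf13b had opposite signs in the 2 experiments, so this median does not show a shift of the set. The lymphotoxins, their receptor, the tumour necrosis factor family ligands Tnfsf11 and Tnfsf13b and Nkx2-3 did not pass the limma test over the 20 wild-type arrays. Quantile normalisation or median centring of the arrays moved the share of higher among all called genes from 54.2% to 46.6% or 43.3%, and left the direction of the 3 called genes as it was.

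**Figure D1:**
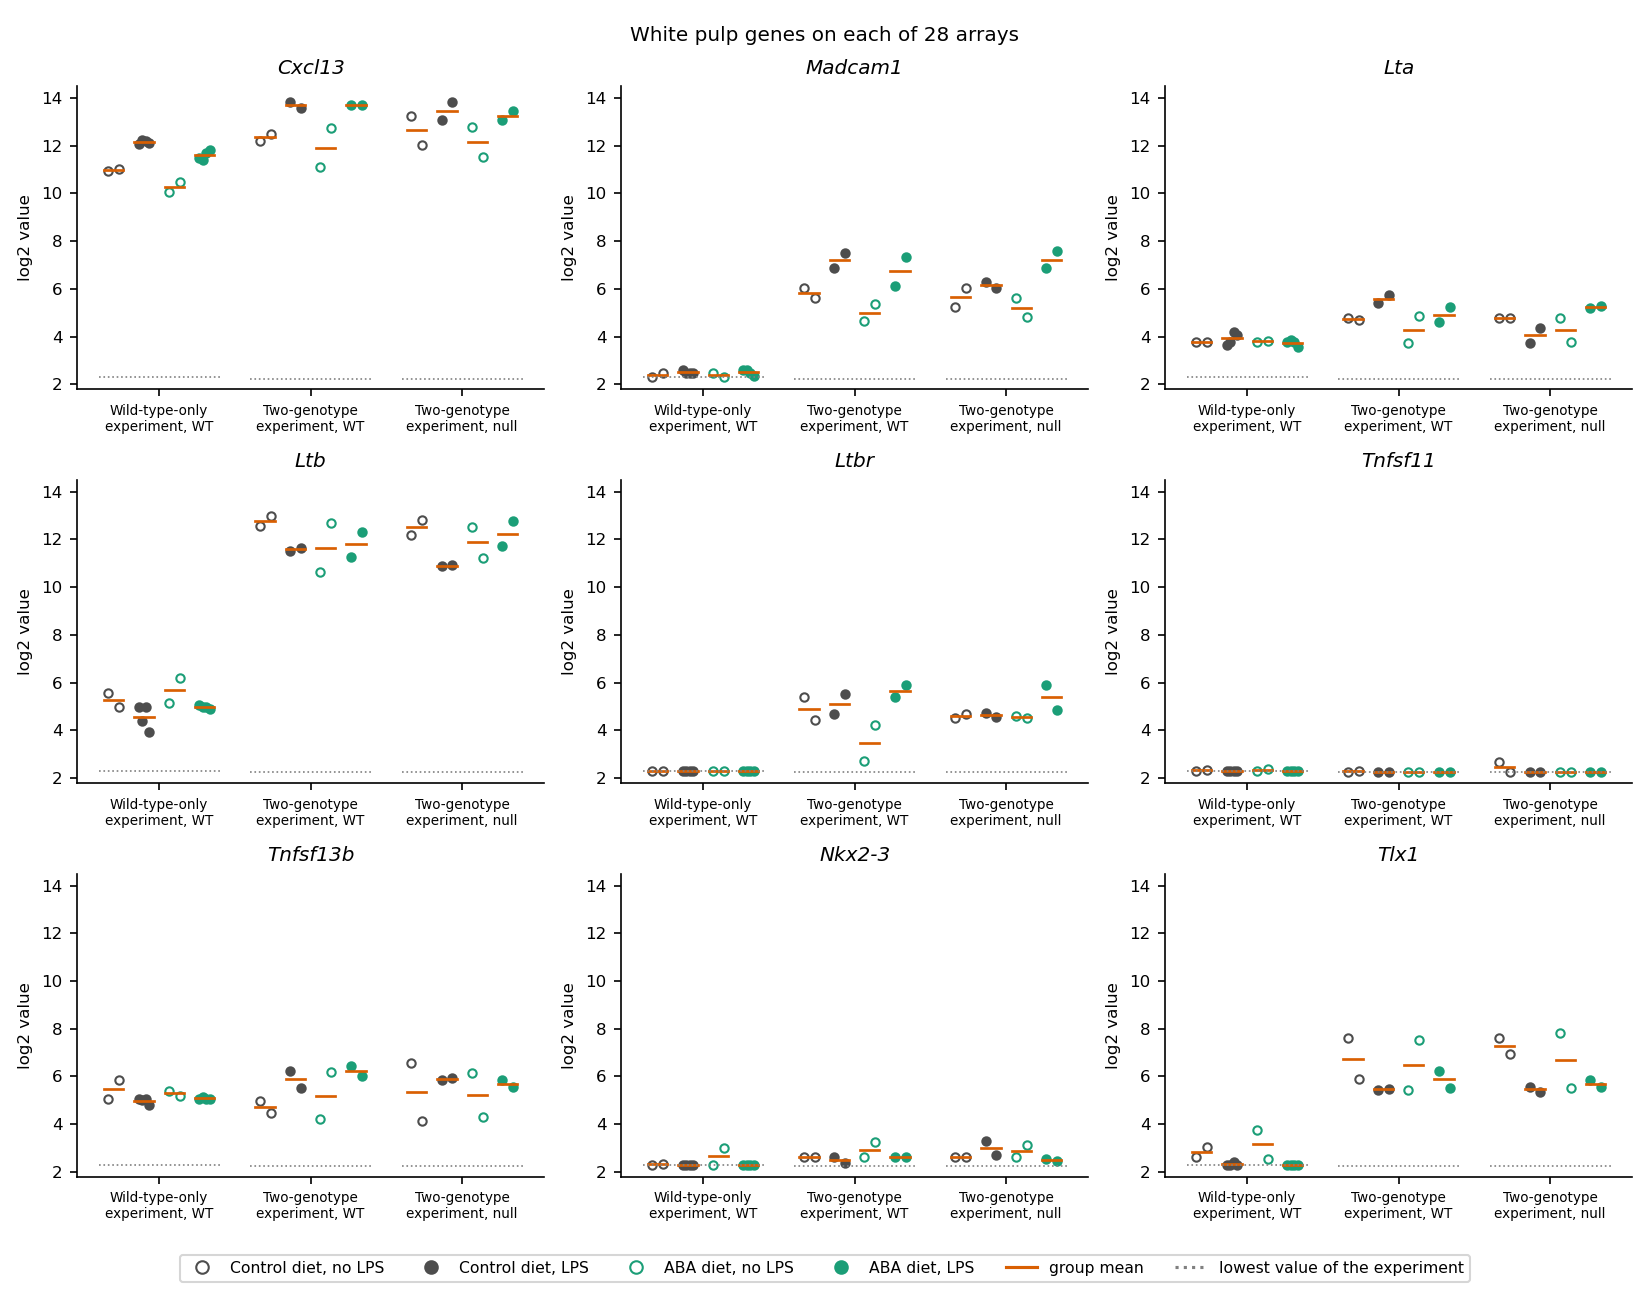
Log2 value (y axis) of each of the 9 genes on each of 28 arrays, grouped along the x axis by experiment and genotype; grey is the control diet, green the ABA diet, open points are without LPS and filled points with LPS, orange bars are group means and dotted lines the lowest value of the experiment. Cxcl13 lay above 10 on every array, Ltb lay at 3.93 to 6.21 in one experiment and 10.63 to 13.00 in the other, and Ltbr and Tnfsf11 lay at or near the lowest value throughout the wild-type-only experiment.

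Cxcl13 had the largest LPS change of the 9 genes in the fit of the 20 wild-type arrays. In the wild-type-only experiment with LPS it read 12.07, 12.22, 12.20 and 12.11 on the control diet and 11.47, 11.40, 11.68 and 11.82 on the ABA diet. Without LPS it read 10.94 and 11.01 on the control diet and 10.05 and 10.48 on the ABA diet. Every array with LPS was above every array without it, and the 4 groups stood in one order with no overlap between neighbours.

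In wild-type mice of the two-genotype experiment Cxcl13 read 13.84 and 13.57 with LPS on the control diet and 13.72 and 13.70 on the ABA diet. Without LPS it read 12.21 and 12.47 on the control diet and 11.09 and 12.72 on the ABA diet. Again the arrays with LPS did not overlap those without, which held in this direction for 9.56% of all tested genes among wild-type-only arrays and 9.41% among wild-type arrays of the two-genotype experiment. Over both experiments Cxcl13 rose by 1.39 ± 0.17 log2 units (SE; 95% interval 1.04 to 1.74), or 2.63-fold (limma, adjusted p = 1.12e-05). The change was 1.25 in the wild-type-only and 1.59 in the two-genotype arrays, and it passed on the control diet alone (1.29, limma, adjusted p = 0.00112) and on the ABA diet alone (1.5, limma, adjusted p = 0.000385). A second Cxcl13 probe set read 10.61 to 11.36 with LPS against 9.53 to 10.35 without on wild-type-only arrays, and 12.46 to 12.86 against 10.48 to 11.94 in wild-type mice of the two-genotype experiment, so it too had no overlap.

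**Figure D2:**
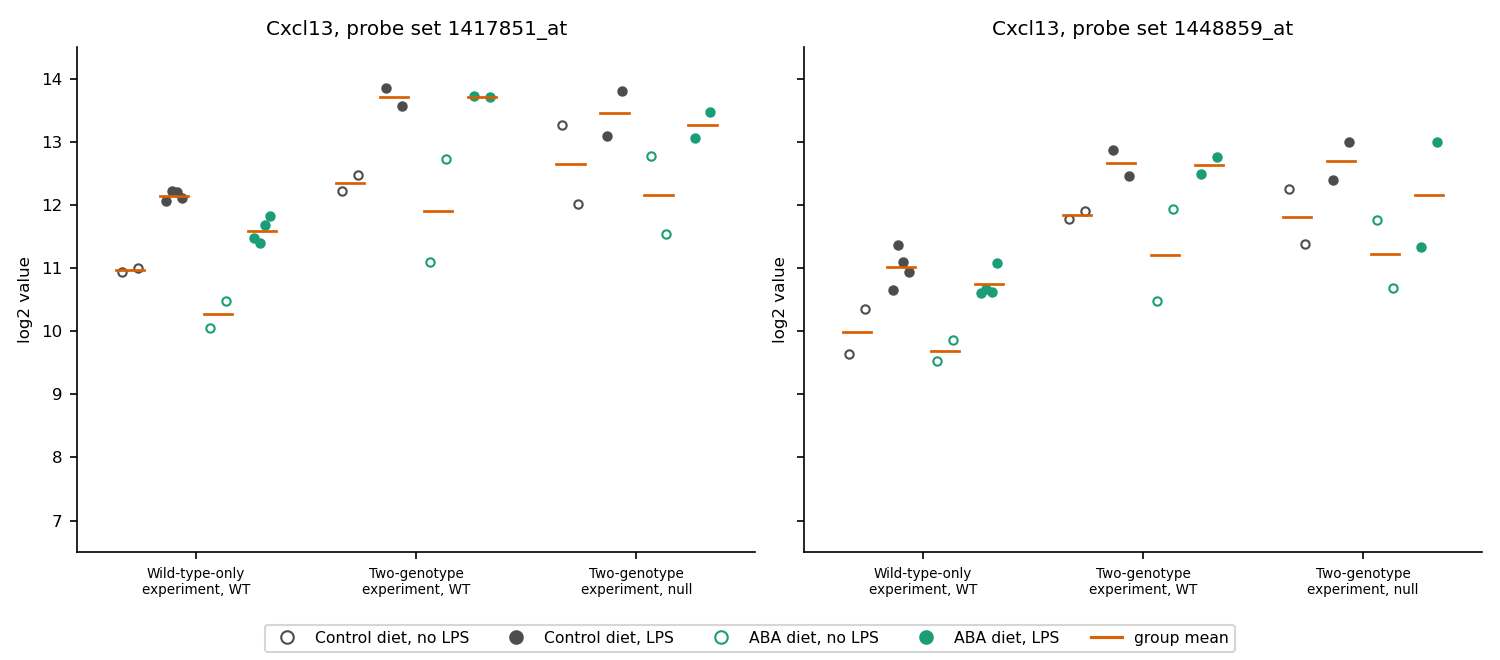
Log2 values of Cxcl13 (y axis, starting above 0) from its 2 probe sets on each array, grouped along the x axis by experiment and genotype, with diet, LPS and means marked as in the plot of all 9 genes. Filled points lie above open points in wild-type mice of both experiments for either probe set; the gap between diets among wild-type-only arrays given LPS (11.40 to 11.82 against 12.07 to 12.22) is seen with the first probe set and not with the second, where the diets overlap.

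The probe set that names Ccl19, a chemokine of the T cell zone, among its 10 loci read 11.89 and 12.25 with LPS on the control diet and 11.81 and 12.31 on the ABA diet in wild-type mice of the two-genotype experiment. Without LPS it read 10.64 and 10.48 on the control diet and 9.41 and 10.77 on the ABA diet, with no overlap. On wild-type-only arrays the probe set read 9.82 to 10.40 with LPS on the control diet and 9.21 to 9.51 with LPS on the ABA diet, and 9.13 to 9.51 without LPS. There the control diet arrays with LPS stood above the other groups, and the ABA arrays with LPS overlapped those without. It was not part of the fit, which used single-gene probe sets.

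Madcam1 was measurable in one of the experiments. On all 12 wild-type-only arrays it lay near the lowest value, between 2.33 and 2.62, with 6 arrays at a repeated 2.48. In wild-type mice of the two-genotype experiment it read 6.87 and 7.51 with LPS on the control diet and 6.13 and 7.35 on the ABA diet. Without LPS it read 6.04 and 5.64 on the control diet and 4.64 and 5.38 on the ABA diet.

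Those 4 wild-type arrays with LPS lay above all those without. Over both experiments Madcam1 rose by 0.72 ± 0.24 log2 units (SE; 95% interval 0.22 to 1.23; limma, adjusted p = 0.0313). This average combines 0.11 in the wild-type-only experiment (limma, adjusted p = 0.227), where the gene has no measured size, with 1.55 in the two-genotype experiment, which passed in the 16-array fit, an alternative chosen after seeing the data (limma, adjusted p = 0.0216), and not on its 8 wild-type arrays alone (limma, adjusted p = 0.0790). The joint value, its SE and its interval therefore have no exact size, since wild-type-only arrays near the lowest value enter all of them. The call of the 20-array fit was lost on leaving out, in turn, any of 6 of the 8 wild-type arrays of the two-genotype experiment (adjusted p 0.0520 to 0.0605, limma): both ABA arrays without LPS, ABA array 2 with LPS, control diet array 2 without LPS and both control diet arrays with LPS.

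Tlx1, the homeobox factor without which no spleen forms, fell. Among wild-type-only arrays without LPS, it read 2.62 and 3.03 on the control diet and 3.76 and 2.55 on the ABA diet. With LPS 7 of 8 arrays lay at a repeated 2.31 and the other at 2.40, below all arrays without LPS, which held for 6.07% of tested genes in this direction. In wild-type mice of the two-genotype experiment it read 7.60 and 5.89 on the control diet and 5.44 and 7.54 on the ABA diet without LPS.

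With LPS those mice read 5.43 and 5.50 on the control diet and 6.24 and 5.53 on the ABA diet, so the groups overlapped there (7.91% of tested genes had no overlap in this direction in those mice). Over both experiments Tlx1 fell by 0.79 log2 units (SE 0.26; 95% interval -1.35 to -0.23; limma, adjusted p = 0.0335). The difference was -0.95 in the two-genotype arrays and -0.67 in the wild-type-only arrays, where 10 of 12 lay near the lowest value, 2 of those without LPS among them, so the latter and the joint value have no exact size. Tlx1 passed in the wild-type-only experiment alone (limma). It did not pass on the wild-type arrays of the two-genotype experiment, where it was measurable, either alone or in the 16-array fit. The call of the 20-array fit was lost on leaving out any of 7 of the 20 arrays in turn (adjusted p 0.0550 to 0.0892, limma). These were wild-type-only control diet array 2 and ABA array 1 without LPS and, in the two-genotype experiment, ABA array 2 without and with LPS, control diet array 1 without LPS and both control diet arrays with LPS.

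**Figure D3:**
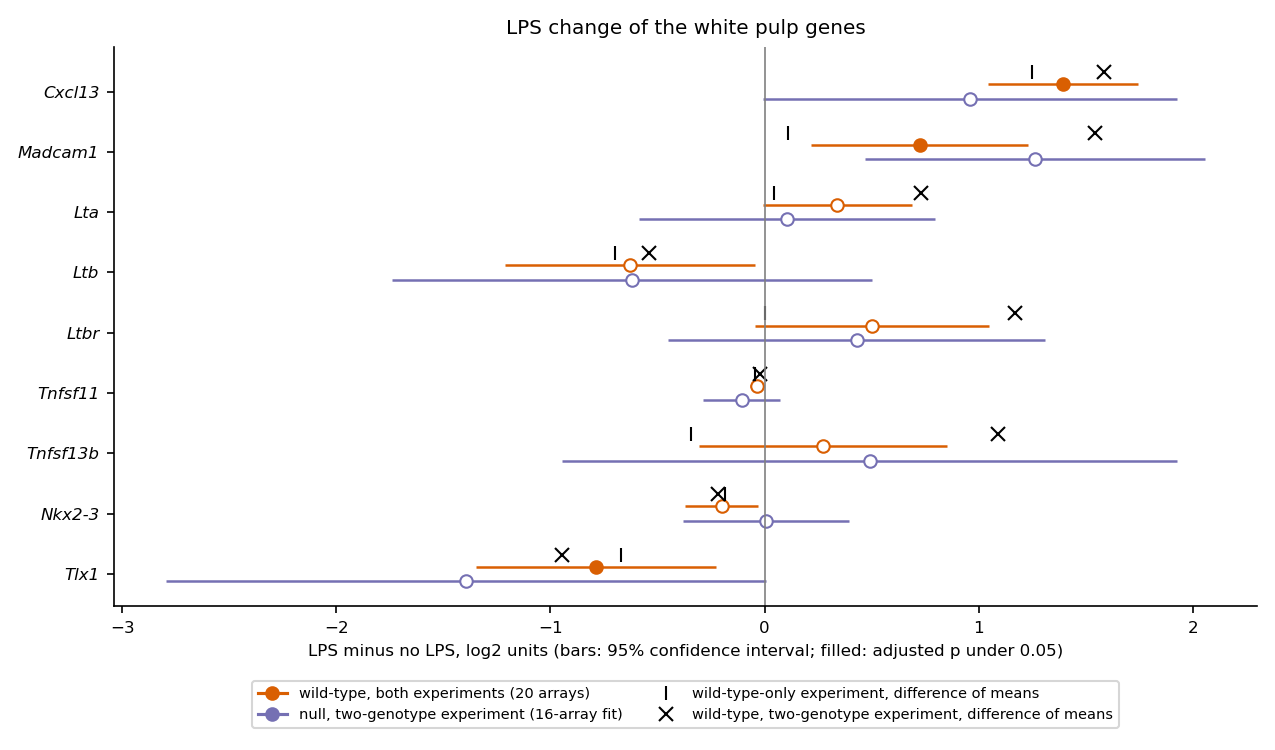
LPS minus no LPS (x axis, log2 units) for each of the 9 genes (y axis); orange is the fit of 20 wild-type arrays, violet the null mice in the 16-array fit, bars are 95% confidence intervals, filled points passed at an adjusted p under 0.05, and black marks are differences of means within each experiment for wild-type mice. The black marks lie close together for Cxcl13, Ltb and Tlx1 and far apart for Madcam1 (0.11 and 1.55), Ltbr (0 and 1.17) and Tnfsf13b (-0.34 and 1.09).

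Ltb, the membrane-bound lymphotoxin subunit made by B cells and T cells, did not pass the LPS test in either genotype. In two-genotype control diet wild-type mice its values were 12.58 and 13.00 without LPS, and 11.52 and 11.65 after LPS. ABA diet values were 10.63 and 12.70 without LPS, and 11.26 and 12.33 after LPS. The control diet arrays with LPS lay below those without, while the ABA arrays overlapped. Both control diet arrays with LPS had high Xist and neither of those without did, so within that diet LPS and the Xist difference cannot be told apart. The same limit holds for every other gene on those arrays, Cxcl13, Madcam1 and Tlx1 among them.

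In the wild-type-only experiment Ltb lay between 3.93 and 6.21, with 5 of 12 arrays at a repeated 4.98. Over both experiments the difference was -0.63 ± 0.28 log2 units (SE), which did not pass (limma, adjusted p = 0.0966). Leaving out ABA array 1 without LPS of the two-genotype experiment alone gave -0.85 (limma, adjusted p = 0.00421). That array had high Xist, and its B cell marker mean was 8.39, the lowest of the 8 arrays without LPS in that experiment, the next being 8.88 on null ABA array 2 without LPS, which had high Xist and high Cpa1. The T cell marker mean of the former was also the lowest of the 8 (6.82) and its erythroid marker mean the highest (13.33), and on the latter they were 7.45 and 12.78. On those 2 arrays Ltb read 10.63 and 11.23, Cxcl13 11.09 and 11.54 and Tlx1 5.44 and 5.53, the lowest values of each gene among the arrays without LPS. With a term for high Xist, the wild-type LPS change of Cxcl13 was 1.48, of Tlx1 -0.66 and of Ltb -0.53. Without the arrays with high Cpa1 these were 1.41, -0.88 and -0.62, and under both alternatives Cxcl13, Madcam1 and Tlx1 passed and Ltb did not. The part of the B cell, T cell and erythroid markers in these values was not tested.

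Lta, the secreted lymphotoxin subunit that also pairs with Ltb, lay low. It read 3.55 to 4.19 with LPS and 3.77 to 3.82 without on wild-type-only arrays, and 4.61 to 5.74 with LPS and 3.72 to 4.87 without in wild-type mice of the other. The groups overlapped in both, and the difference of 0.34 ± 0.16 log2 units (SE) did not pass (limma, adjusted p = 0.130). Ltbr, the receptor through which the lymphotoxin heterotrimer acts on stroma, was at the lowest value on all 12 wild-type-only arrays. In the other wild-type mice it read 4.67 to 5.90 with LPS against 2.73 to 5.41 without, a difference of means of 1.17. The joint value over both experiments was 0.50 ± 0.26 log2 units (SE) and did not pass (limma, adjusted p = 0.155). It averages in a difference of 0 from the wild-type-only arrays, where the gene has no measured size. The joint value and its SE therefore have no exact size.

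Tnfsf11 (RANKL), a ligand needed for lymph node formation, lay near the lowest value on every array, at most 2.67, so its change of -0.03 has no measured size. Tnfsf13b (BAFF), the survival factor of mature B cells, read 4.79 to 5.14 with LPS and 5.06 to 5.85 without on wild-type-only arrays, and 5.52 to 6.44 against 4.21 to 6.19 in wild-type mice of the two-genotype experiment. These differences had opposite signs, -0.34 and 1.09, and the joint value of 0.27 ± 0.27 did not pass (limma, adjusted p = 0.482). Nkx2-3, a homeobox factor of splenic stroma and endothelium that is needed for Madcam1 expression, lay near the lowest value on 11 of 12 and 13 of 16 arrays, and its difference of -0.20 ± 0.08 did not pass (limma, adjusted p = 0.0723).

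In null mice LPS changed none of the 9 genes by the limma test, where 7.4% of the 13377 genes tested passed (3.95% higher and 3.45% lower); 1 of the 9 had an unadjusted p under 0.05. Cxcl13 read 13.09 and 13.81 with LPS on the control diet and 13.06 and 13.47 on the ABA diet, against 13.26 and 12.02 and, on the ABA diet, 12.77 and 11.54 without LPS. A single array without LPS, on the control diet, overlapped the arrays with LPS; in null mice 6.5% of tested genes were higher on all arrays with LPS and 6.97% lower. The difference was 0.96 ± 0.43 log2 units (SE; 95% interval -0.01 to 1.93; limma, adjusted p = 0.230).

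Madcam1 read 6.28 and 6.06 with LPS on the control diet and 6.87 and 7.57 on the ABA diet in null mice. Without LPS it read 5.24 and 6.06, and on the ABA diet 5.60 and 4.82. The 2 conditions met at a shared 6.06, and the difference was 1.26 ± 0.35 (95% interval 0.47 to 2.06; limma, adjusted p = 0.0653). It passed after quantile normalisation (limma, adjusted p = 0.0430), after median centring (adjusted p = 0.0329) and with a stricter filter on low genes (adjusted p = 0.0406).

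Tlx1 in null mice read 7.61 and 6.94 without LPS on the control diet and 7.83 and 5.53 on the ABA diet, against 5.56 and 5.36 and, on the ABA diet, 5.84 and 5.56 with LPS. The single low array without LPS, ABA array 2, lay among the arrays with LPS. The difference was -1.40 ± 0.62 (limma, adjusted p = 0.227). Ltb read 12.21 and 12.81 without and 10.89 and 10.92 with LPS on the control diet, and 12.53 and 11.23 without and 11.72 and 12.76 with LPS on the ABA diet. It was lower with LPS on the control diet alone by level, overlapped on the ABA diet, and did not pass (-0.62 ± 0.49; limma, adjusted p = 0.508).

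The difference in LPS change between genotypes passed for none of the 9 genes, and for 0.0299% of all tested genes (0.0224% with a higher change in null mice); 0 of the 9 had an unadjusted p under 0.05. The null minus wild-type difference in LPS change was -0.63 for Cxcl13 (95% interval -2.0 to 0.74; limma, adjusted p = 0.943), -0.28 for Madcam1 (-1.41 to 0.84) and -0.45 for Tlx1 (-2.43 to 1.53). These intervals are wide and do not show that the genotypes responded alike. The null minus wild-type difference in level passed for none of the 9 genes without LPS (0.00748% of all genes passed) or with LPS (0.0299% passed, 0.0224% higher in null mice). In either comparison 0 of the 9 had an unadjusted p under 0.05 (limma).

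The level of Madcam1 in the two-genotype experiment ran from 7.22 ± 0.49 in null mice on ABA with LPS down to 5.01 ± 0.52 in wild-type mice on ABA without LPS (SD, n = 2 each). All 4 groups with LPS stood above all 4 without it in this order, and among neighbours only null control diet with LPS (6.17 ± 0.16) and wild-type control diet without LPS (5.84 ± 0.28) had ranges that did not overlap. Cxcl13 ran from 13.71 ± 0.01 to 11.91 ± 1.15 in wild-type mice on ABA with and without LPS, again with the 4 LPS groups on top, and no neighbours in its order were separate. Tlx1 ran the other way, from 7.27 ± 0.48 in control diet null mice without LPS to 5.46 ± 0.05 in control diet wild-type mice given LPS, with no neighbours separate. Ltb did not sort by LPS: its lowest group was null, control diet, with LPS (10.90 ± 0.02), below wild-type, control diet, with LPS (11.59 ± 0.09), and the other neighbours overlapped.

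The ABA diet changed none of the 9 genes. With LPS in wild-type mice 0.0149% of all genes passed, without LPS 0.00743%, and in null mice none passed (0%). Of the 9 genes, 2 had an unadjusted p under 0.05 in wild-type mice without LPS and 0 in wild-type mice with LPS and in null mice (limma). The 2 were Cxcl13, at -0.57 ± 0.25 log2 units on ABA against the control diet (limma, adjusted p = 0.843), and Nkx2-3, at 0.32 ± 0.12 (limma, adjusted p = 0.814), whose values lie near the lowest.

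Among wild-type-only arrays given LPS, the 4 ABA arrays of Cxcl13, at 11.40 to 11.82, lay below the 4 control diet arrays, at 12.07 to 12.22. Fitted in that experiment alone the difference was -0.55 ± 0.11 and did not pass (limma, adjusted p = 0.190). In the two-genotype experiment it was 0.01 ± 0.54, and over both it was -0.37 ± 0.21 (limma, adjusted p = 0.948). In the same arrays the second Cxcl13 probe set read 10.61 to 11.08 on ABA and 10.65 to 11.36 on the control diet, so the diets overlapped.

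Whether the diet altered the LPS change was tested directly, and 0 of the 9 genes and 0% of all genes passed in wild-type mice (Cxcl13 0.20, 95% interval -0.49 to 0.90; limma, adjusted p = 0.963). Whether the diet difference varied with genotype was also tested, and again 0 of the 9 genes and 0% of all genes passed. The largest of these values were 0.95 ± 0.50 for Madcam1 and 0.90 ± 0.43 for Lta (limma, adjusted p = 1.0 for both). With LPS, Lta had read 3.72 and 4.38 on the control diet and 5.19 and 5.29 on the ABA diet in null mice. Wild-type mice with LPS went the other way, at 5.42 and 5.74 and, on the ABA diet, 4.61 and 5.24. Without LPS both genotypes had the lower mean on ABA, 4.29 against 4.79 in null mice and 4.30 against 4.74 in wild-type mice. Of the two-genotype arrays without LPS, 4 lay at a repeated 4.79.

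Around these genes, transcripts of the alternative NF-kB pathway, which carries lymphotoxin receptor signals, were counted. Of 6 tested genes 5 rose and none fell after LPS in wild-type mice, where 16.7% of all genes rose, with a median change of 1.28 log2 units against -0.00072 over all genes (limma, 20 arrays). Relb, the RelB subunit, rose by 1.85 ± 0.31 (SE; adjusted p = 0.000294), from 6.07 to 6.55 without LPS to 7.31 to 7.94 with it in the wild-type-only experiment. The ubiquitin ligases Birc3 and Birc2, which hold the NIK kinase down, rose by 1.55 ± 0.19 and 1.54 ± 0.13. Nfkb2, the p100 precursor of p52, rose by 1.03 ± 0.30 and the adaptor Traf2 by 0.49 ± 0.15. Nfkb2 overlapped in the wild-type-only experiment (7.25 to 7.75 with and 7.02 to 7.79 without LPS; 0.21, adjusted p = 0.279), and Traf2 lay low there, at 2.61 to 2.84 with LPS and 2.51 to 2.61 without. Map3k14, which encodes NIK, lay at -0.03. 

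In null mice 3 of these 6 genes rose: Nfkb2 by 1.89 ± 0.34, Birc2 by 1.59 ± 0.26 and Relb by 2.00 ± 0.51 (limma, adjusted p = 0.0126, 0.00766 and 0.0498). The call of Nfkb2 was lost without null ABA array 1 with LPS (adjusted p = 0.0520). That of Relb was lost on leaving out any array in turn other than the 2 wild-type ABA arrays without LPS and null ABA array 1 without LPS, 13 of 16 in all (1.56 to 2.44 over the 16), and also without the arrays with high Cpa1 (1.58, adjusted p = 0.158).

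Among receptors, ligands and partners of the white pulp genes, 3 of 13 tested rose and 1 fell in wild-type mice, a share close to the 30.9% of all genes called, with a median of 0.11. Ccr7, the receptor for CCL19 and CCL21, rose by 2.48 ± 0.26 and Cxcr5, the receptor for CXCL13, by 1.87 ± 0.32 (limma, adjusted p = 2.49e-06 and 0.000430). Ccr7 read 9.36 to 10.68 with and 7.40 to 8.37 without LPS in the wild-type-only experiment, with no overlap. Cxcr5 read 5.30 to 7.12 with and 3.01 to 5.24 without LPS there. Both receptors were thus higher with LPS without overlap in that experiment, and in wild-type mice of the two-genotype experiment Ccr7 read 10.33 to 11.76 against 7.02 to 9.22, while Cxcr5 read 8.76 to 10.76 against 7.21 to 8.92 and overlapped.

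Tnf rose by 1.05 ± 0.34 (limma, adjusted p = 0.0306), but it lay near the lowest value on the wild-type-only arrays (2.30 to 2.59 with LPS), and its call was lost without any of 5 arrays of the two-genotype experiment (adjusted p 0.0565 to 0.0616): either wild-type ABA array without LPS, either control diet array without LPS, or ABA array 2 with LPS. Itgb7, a subunit of the integrin that binds MAdCAM-1, fell by 1.56 log2 units (SE 0.32; limma, adjusted p = 0.00168). It read 6.66 to 8.39 with and 9.83 to 10.59 without LPS on wild-type-only arrays, and 6.22 to 6.84 against 6.48 to 7.30 in the two-genotype experiment, where the difference was -0.35 and did not pass on those arrays alone (limma, adjusted p = 0.296). In null mice Ccr7 rose by 2.26 ± 0.35 and Tnf by 2.02 ± 0.42 (limma, adjusted p = 0.00535 and 0.0228), and none of the 13 fell; the call of Tnf was lost without any 1 of the 4 null ABA arrays or null control diet array 2 with LPS (adjusted p 0.0604 to 0.0834).

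Of 5 tested transcription factors of spleen development, 2 fell and none rose in wild-type mice (median -0.29), where 14.1% of all genes fell. Tcf21, a factor of splenic mesenchyme, fell by 3.31 log2 units (SE 0.31; limma, adjusted p = 9.19e-07). It read 5.31 to 6.83 without LPS and 2.29 to 2.43, near the lowest value, with LPS on wild-type-only arrays, and 9.05 to 11.56 against 7.17 to 8.19 in the other wild-type mice, with no overlap in either. Nr2f2 fell by 0.80 log2 units (SE 0.27; limma, adjusted p = 0.0352), and its call was lost on leaving out 11 of the 20 arrays in turn (adjusted p 0.0510 to 0.0709). It held without wild-type-only ABA arrays 2, 3 and 4 or control diet arrays 1 and 2 with LPS, and without two-genotype ABA array 1 of either condition or control diet array 2 of either condition. In null mice 1 of 4 tested fell, Tcf21 by 2.99 log2 units (SE 0.70; limma, adjusted p = 0.0360), with 9.35 to 11.28 without LPS against 7.22 to 7.43 with it. That call was lost on leaving out 10 of 16 arrays in turn (adjusted p 0.0600 to 0.122), and held without any 1 wild-type array that had no LPS, null ABA array 2 without LPS or null control diet array 2 without LPS.

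Of 9 stromal niche and adhesion genes, 2 rose and 2 fell in wild-type mice (median 0.07), beside 16.7% and 14.1% of all genes. Icam1, an adhesion molecule, rose by 2.61 ± 0.27 and Bst1, a marker of follicular dendritic and bone marrow stromal cells that neutrophils also carry, by 2.23 ± 0.23. Vcam1, the ligand of lymphocyte integrin VLA-4, and Il7, the T cell survival cytokine, each fell by 1.47 log2 units (SE 0.22 and 0.28; limma, adjusted p = 0.000115 and 0.000845). Vcam1 is also a marker of red pulp macrophages, of which 4 of 6 markers fell: Cd163, Slc40a1, Hmox1 and Vcam1 itself. The part of these cells in the fall of Vcam1 was not tested. In null mice Icam1 rose by 2.75 ± 0.46, Vcam1 fell by 2.22 log2 units (SE 0.31; limma, adjusted p = 0.00357) and Il7 fell by 1.92 (SE 0.47; adjusted p = 0.0405). The Il7 call was lost on leaving out any array in turn other than the 2 wild-type ABA arrays without LPS and null control diet array 2 without LPS. Outside the LPS comparisons, none of the 84 tested genes of the pathway and marker lists passed in a wild-type diet comparison and none of 87 in a comparison of genotypes or of diet in null mice (limma).

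**Figure D4:**
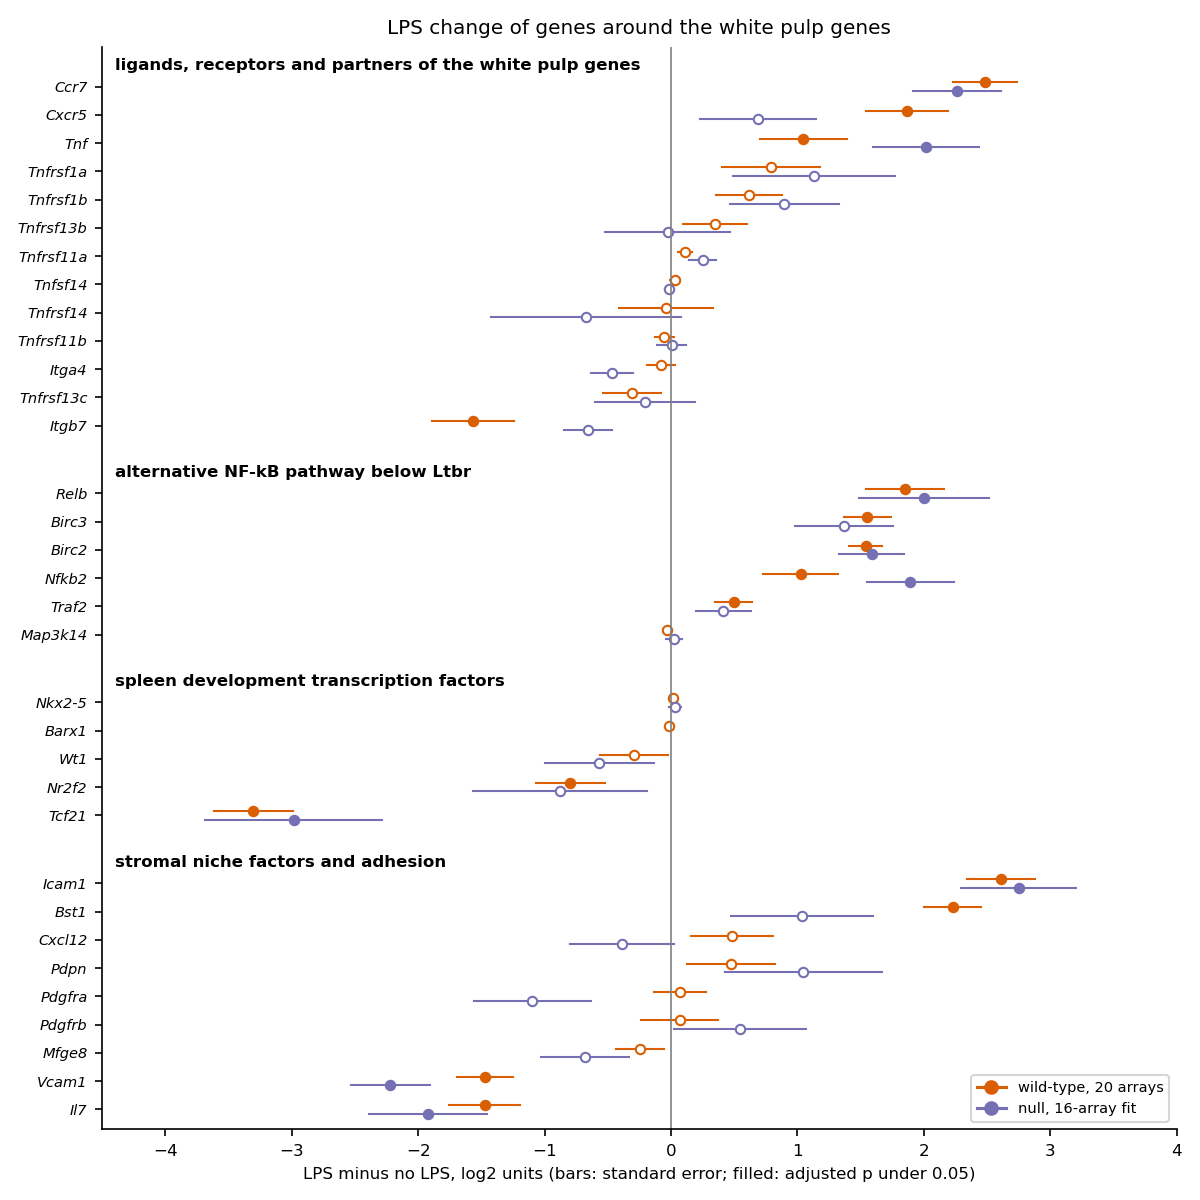
LPS minus no LPS (x axis, log2 units) of each tested gene (y axis) in 4 lists around the white pulp genes; orange is wild-type mice (20 arrays), violet null mice (16-array fit), bars are standard errors, filled points passed at an adjusted p under 0.05. In the alternative NF-kB list 5 of 6 orange points are filled and to the right of 0, while Tcf21 lies furthest to the left at -3.31.

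Cell markers were counted in the same LPS comparison, in which 16.7% of all genes rose and 14.1% fell. In wild-type mice 3 of 7 B cell markers fell and none rose (Fcer2a -2.19, Cd79b -1.09, Blk -0.78), and 3 of 7 T cell markers fell (Thy1 -1.86, Cd3g -0.86, Cd5 -0.74). The mean of the B cell markers ran from 7.64 to 8.72 with LPS and from 8.35 to 9.26 without on wild-type-only arrays, and from 8.35 to 9.26 against 8.39 to 10.21 in the other wild-type mice. Of 5 follicular dendritic cell markers 2 rose, Bst1 and Fcgr2b (1.33), and Cr2 read 10.74 to 11.43 with and 10.43 to 11.76 without LPS on wild-type-only arrays. None of 6 fibroblastic reticular cell markers passed, with changes from -0.33 to 0.47. Endothelial markers split, with Cdh5 up by 1.68 Stab2, of sinusoids, at -2.94 and Tek at -1.04, and all 5 erythroid markers fell. Of 3 tested dendritic cell markers 2 fell, Itgax (-1.68) and Zbtb46 (-0.86). The part of these markers in the changes of Cxcl13, Madcam1, Tlx1 and Ltb was not tested.

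As a description, the genes whose 12 group means, centred within each experiment, ran most like each white pulp gene were named by Pearson's r; these share libraries and the LPS groups, and no p is given. They were Plac8 and Dusp16 for Cxcl13 (both 0.97), Mapkapk2 and Cdc42ep2 for Madcam1 (0.99 and 0.98), Abhd12 and Gstm1 for Tlx1 (both 0.98) and Reep5 and Sema4b for Ltb (0.97 and 0.95). For Lta they were Ticam1 (0.98) and Hspbp1 (0.97), for Ltbr Ubxn11 (0.99) and Hspb1 (0.97), and for Tnfsf13b Ror1 (0.92) and Atxn10 (0.91). Tnfsf11 (Izumo4 and Plxdc1) and Nkx2-3 (Tex21 and Syp) lie near the lowest value, so likeness to them rests on a few arrays.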

How the data were processed

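The table deposited by the authors holds log2 values of 45101 probe sets on 28 arrays; GCRMA and limma are named, without roles, in the submitters' processing notes. The log2 scale was inferred from the range, and a different lowest value in each experiment was taken to mean separate normalisation. No pair of arrays was identical (0 pairs). In GEO's platform annotation 34945 probe sets carry 1 gene, 932 carry several and 9224 carry none or are controls; 34741 of the first matched RefSeq (GRCm38.p6). Of 18193 genes, each was read from its highest-mean probe set.

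All tests used limma 3.58.1 (R 4.3.3; lmFit and eBayes) with Benjamini-Hochberg adjustment at 0.05 over all genes left by a filter at the 40th percentile of each array. One fit took the 20 wild-type arrays, with a term for experiment (13458 genes; 15 residual degrees of freedom), and the other the 16 arrays for comparisons with null mice (13377 genes, 8). LPS changes average the 2 diets. Scripts were tested on simulated data. By rule, genes named outside the 10 are those of 4 pathway lists that passed, at most 4 per list and direction, the 2 most alike each of the 9, and Pparg and Xist as checks; Traf2, Map3k14, Cpa1 and the cell markers named fall outside it and were chosen after their values were seen. The 10 genes, the lists and the tests were chosen with earlier results of these data known. Alternatives covered normalisation, filter, probe set choice, variance model, array weights, replicate block, Xist, Cpa1, single diets and experiments, and each array left out. Tables and plots used Python 3.11.15, pandas 2.3.3 and matplotlib 3.10.9.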

Additional observations from a re-analysis of the deposited data

Results flagged for a closer look

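In 13 sets of 4 arrays (each gene in a group of 4, where values were not all equal), 5 held 1 array far from the other 3; chance flags about 1 in 20 sets of values without ties, a rate that does not carry over to tied values. Only the wild-type-only groups with LPS hold 4 arrays, so no flag could lie elsewhere. In all 5 the other 3 arrays repeat one value, so the gaps are small. Madcam1 read 2.62 on 1 control diet array, Tnfsf11 read 2.319 on 1, Tlx1 read 2.401 on 1, and Nkx2-3 read 2.295 on 1, all near the lowest value. Tnfsf13b read 5.135 on 1 ABA diet array against 5.06 on the other 3.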

How the results depend on the processing

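The LPS change of Cxcl13 in wild-type mice kept its direction under all alternatives and passed in all but the fit of the two-genotype wild-type arrays alone (1.59, limma, adjusted p = 0.0809), which has 4 residual degrees of freedom. The count of the 9 genes called for LPS in wild-type mice, 3, became 1 on the control diet alone, 1 on the ABA diet alone (Cxcl13 in both) and 0 in the two-genotype experiment alone; it ran from 1 to 4 with single arrays left out. Madcam1 was lost with array weights (0.42, adjusted p = 0.113), which gained Nkx2-3 (-0.21); Nkx2-3 was also gained with median centring (-0.27) and the mean of all probe sets (-0.09). For LPS in null mice the count rose from 0 to 1 with quantile normalisation, median centring and the 60th percentile filter (Madcam1), and to 1 without arrays with high Cpa1 (Tnfsf11, near the lowest value). Without those arrays the null against wild-type count without LPS and the ABA count in null mice also rose from 0 to 1 (Tnfsf11). Leaving out single arrays gave 0 to 1 in these 3 comparisons, the 1 without null control diet array 2 without LPS, and 0 in the other 6.

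Signs turned for Tnfsf13b after LPS in wild-type mice (-0.066 with array weights, -0.34 in the wild-type-only experiment), for Cxcl13 on ABA with LPS (0.00701 in the two-genotype experiment), for the diet by LPS term of Cxcl13 (-0.24 with a term for Xist; -0.10 to 0.49 leaving out single arrays) and for Ltb in null mice (0.37 on ABA alone). The genotype term of the LPS change ran from -0.59 to 0.020 for Madcam1 and from -1.03 to 0.13 for Tlx1 with single arrays left out, turning without wild-type ABA array 2 with LPS for Madcam1 and without wild-type or null ABA array 1 without LPS for Tlx1. None of these had passed, and the cause was not tested. Arrays with the same replicate number deviated together by a median correlation of 0.02 (-0.70 to 0.51) in the two-genotype experiment and -0.01 (-0.15 to 0.38) in the wild-type-only experiment. In a group of 2 arrays the deviations from the group mean are exact opposites. Each two-genotype correlation is therefore the same for either replicate number. These values cannot tell whether arrays of the same number share more than that number. With the replicate block, Tlx1 did not pass (-0.81, limma, adjusted p = 0.0934), Cxcl13 and Madcam1 did (1.38 and 0.86), and calls over all genes went from 4154 to 3201. Over all genes for LPS in wild-type mice, calls numbered 2437 on the control diet alone, 2054 on ABA alone and 928 in the two-genotype experiment alone. In null mice the share higher among called genes went from 53.3% to 66.4% with median centring, which shifted the median of all genes to 0.12, and to 31.6% without arrays with high Cpa1. Array number and the lowest value limit what can be seen, chiefly for Tnfsf11, Nkx2-3, Ltbr and, in the wild-type-only experiment, Madcam1 and Tlx1.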
